A study of Mus musculus with 6 samples.

Results

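The secreted ligands of the VEGF, angiopoietin and PDGF families were examined in healing bone of mice without the vitamin D-degrading enzyme Cyp24a1. The 10 genes were Vegfa, Vegfb, Vegfc, Pgf, Angpt1, Angpt2, Pdgfa, Pdgfb, Pdgfc and Pdgfd, among 18193 genes in all, and they were read by the 20 probe sets whose single annotated symbol is one of these, out of 45037 probe sets. The callus, the repair tissue that forms around a break, came from animals aged 12 weeks on a C57BL6J x 129SV mixed background and was collected 14 days after the tibia had been cut and stabilised with an intramedullary rod. Homozygous null animals, Cyp24a1 (-/-), gave 3 arrays and heterozygous littermates, Cyp24a1 (+/-), gave 3 arrays, so the controls carried a disrupted allele too and no wild-type callus was compared. Values are log2 signals of the Affymetrix Mouse 430_2 array, where 1 unit is a doubling, and differences are null minus heterozygous.

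VEGF-A is the main signal for sprouting of blood vessels and acts through the receptor KDR, while FLT1 binds it together with VEGF-B and PlGF, the product of Pgf. VEGF-C and VEGF-D act mostly on FLT4 and drive growth of lymphatic vessels. ANGPT1 activates the receptor TEK on endothelial cells and steadies vessels, and ANGPT2 mostly opposes it. PDGF-A, -B, -C and -D signal through PDGFRA and PDGFRB, which mesenchymal cells and pericytes carry. In a fracture, vessels invade the cartilage of the callus before bone replaces it, and VEGF-A made by hypertrophic chondrocytes is a known signal for that invasion.

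RefSeq promoter windows, 250 bases before an annotated start on the build GRCm38.p6, were found for 7 of the 10 genes, 10 windows in all. The windows of Vegfc and Pdgfc are shown because these genes had the largest null minus heterozygous values, and that of Vegfa because its levels separated the arrays most widely. Capitals mark the GC box GGGCGG, searched on both strands.
Vegfc, chr8:54077282-54077531, plus strand: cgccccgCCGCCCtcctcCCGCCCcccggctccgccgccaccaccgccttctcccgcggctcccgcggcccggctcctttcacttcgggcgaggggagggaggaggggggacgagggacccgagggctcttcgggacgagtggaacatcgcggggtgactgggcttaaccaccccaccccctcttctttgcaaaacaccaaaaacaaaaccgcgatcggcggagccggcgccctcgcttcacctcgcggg
Pdgfc, chr3:81036166-81036415, plus strand: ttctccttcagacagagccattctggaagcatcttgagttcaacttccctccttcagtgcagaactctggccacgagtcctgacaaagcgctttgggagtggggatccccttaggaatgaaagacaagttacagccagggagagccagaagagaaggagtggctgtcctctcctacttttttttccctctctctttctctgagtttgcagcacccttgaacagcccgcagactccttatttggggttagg
Vegfa, chr17:46032378-46032627, minus strand: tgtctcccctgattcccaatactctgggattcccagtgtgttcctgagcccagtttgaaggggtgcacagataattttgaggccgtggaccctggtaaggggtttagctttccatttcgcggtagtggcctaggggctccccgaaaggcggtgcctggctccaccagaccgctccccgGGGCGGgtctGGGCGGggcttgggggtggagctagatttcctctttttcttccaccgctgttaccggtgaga
The GC box occurred 2 times in each of the Vegfc and Vegfa windows and 0 times in that of Pdgfc. It was present in 7 of the 10 windows of these genes and in 32.7% of all 32851 windows, which had a median GC content of 52.4% against 50.8% to 76.4% in the 10. The core of hypoxia response elements, ACGTG, was in 1 of the 10, at the other annotated start of Vegfa, and in 16.6% of all windows. The nuclear receptor half-site AGGTCA was in 1 of the 10, that of Vegfb, and in 14.0% of all, and the TATA box TATAAA was in 1 of the 10, that of Pdgfd, and in 12.4% of all. These matches describe letters in the windows only.

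The targeted transcript was low in both groups, with Cyp24a1 at 3.65, 3.20 and 3.23 in null callus and 2.71, 2.89 and 3.10 in heterozygous callus on 1418866_at, and at 3.12 to 3.46 and 3.17 to 3.69 on 1418867_at. The labels do not locate the disrupted exons with respect to these probes, so the values do not check the genotypes. Bone, cartilage and muscle transcripts were all present: Col1a1 lay between 13.57 and 14.28, Col2a1 between 7.04 and 9.76, and the muscle gene Ckm between 13.60 and 14.10. The hypertrophic cartilage collagen Col10a1 was at 3.11 and 4.44 on null replicates 1 and 2 and between 6.74 and 7.79 on the other 4 arrays. Null replicate 1 and heterozygous replicate 3 held little marrow RNA: a marrow score, the mean deviation of 18 neutrophil and erythroid genes from their own averages, was -3.06 and -3.20 there and 1.20 to 1.91 on the other 4 arrays. These 2 are called the marrow-poor arrays, and differences of the ligands, and medians of gene lists, that turned sign or clearly changed in size without them are given both ways. In whole tissue, fewer cells of a type and less RNA per cell cannot be told apart.

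Of the 20 ligand probe sets 0 passed limma's test adjusted over the whole array (lowest adjusted p = 0.999), as did 0% of all 45037 probe sets (lowest adjusted p = 0.775). At an unadjusted p under 0.05, 2 of the 20 probe sets passed, both of Vegfc and both higher in null callus, against 3.69% of all probe sets (1.63% in that direction). The same 2 were the only ligand probe sets whose groups did not overlap, which is 10% of the 20, close to the 8.95% over all probe sets (3.57% in that direction). On the representative probe set of each gene, the one with the highest mean, 7 of the 10 genes had a higher mean in null callus and 3 a lower one. The median of the 10 differences was 0.22, against -0.00165 over 18193 genes, and 49.7% of those genes were higher in null callus.

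**Figure D1:**
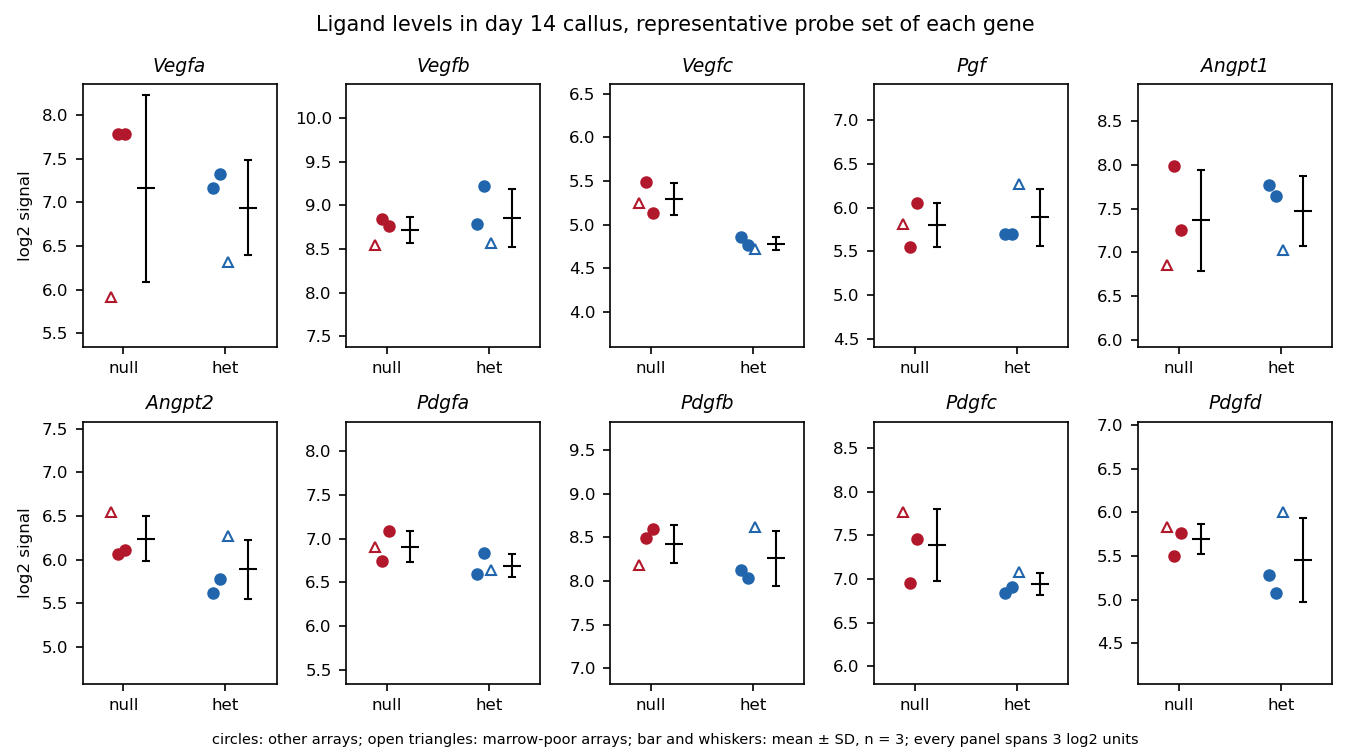
Log2 signal of the 10 ligand genes on their representative probe sets, one panel per gene, with null arrays in red and heterozygous (het) arrays in blue, open triangles for the marrow-poor arrays and mean ± SD (n = 3) beside the points. Vegfc is the only panel in which all null values, 5.13 to 5.49, lie above all heterozygous values, 4.72 to 4.86, while in Vegfa the 2 marrow-poor arrays lie below the other 4.

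Vegfc, which encodes the main growth factor of lymphatic vessels, had the most regular difference of the set. On 1419417_at it was at 5.25, 5.49 and 5.13 in null callus and at 4.86, 4.77 and 4.72 in heterozygous callus. Every null value lay above every heterozygous one, and the marrow-poor array of the null group lay between its other 2 values. The means were 5.29 ± 0.18 and 4.79 ± 0.07 (SD, n = 3), a difference of 0.50 (SE 0.13, 95% interval 0.20 to 0.80), or 1.42-fold. The unadjusted p of limma was 0.00631 and its adjusted p 0.999, and an exact permutation test, two-sided, gave 0.1, the smallest that 3 against 3 arrays allow. A second probe set, 1440739_at, read 5.07, 5.42 and 5.04 against 4.81, 4.84 and 4.53, again without overlap (difference 0.45, SE 0.15). The third, 1439766_x_at, read 4.67, 5.34 and 5.34 against 4.53, 4.94 and 4.64, where null replicate 1 lay within the heterozygous range. Its difference was 0.42 (SE 0.22), and 0.61 (SE 0.17) without the marrow-poor arrays. The ending _x_at marks probes that may also bind other transcripts. All 3 probe sets thus pointed the same way, at mean levels between percentiles 53.5 and 54.8 of all probe sets. Leaving out any 1 array kept the difference of 1419417_at between 0.40 and 0.58, and without both marrow-poor arrays it was 0.49.

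Vegfd, the other lymphatic VEGF and not among the 10, read 7.42, 6.80 and 6.86 in null callus and 6.45, 6.97 and 6.14 in heterozygous callus. The groups overlapped through heterozygous replicate 2, and the difference of 0.51 (SE 0.26) was 0.12 without the marrow-poor arrays. Of 5 measured marker genes of lymphatic endothelium, 0 passed, and the median difference was 0.18 with or without those arrays. The hyaluronan receptor Lyve1 averaged 6.08 ± 0.51 and 5.25 ± 0.73 (SD, n = 3; difference 0.83, SE 0.41), and the extracellular glycoprotein gene Reln 6.30 ± 0.72 and 5.79 ± 0.35 (SD, n = 3; difference 0.52, SE 0.37). On the other 4 arrays Lyve1 differed by 0.69 (SE 0.14, limma's unadjusted p = 0.00358) and Reln by 0.71 (SE 0.16, limma's unadjusted p = 0.00552), each with an adjusted p of 0.644. Both genes were lowest on the marrow-poor arrays. Over all 6 arrays the second probe set gave 0.33 for Lyve1 and -0.08 for Reln. The defining transcription factor gene Prox1 was low on every array, 2.38 to 3.30, and differed by -0.29 (SE 0.22), and Pdpn differed by 0.18 (SE 0.45). The list's mean deviation ran from -0.08 to 0.39 in null callus and from -0.36 to 0.05 in heterozygous callus, and its part in the Vegfc values was not tested.

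Vegfa was lowest on the marrow-poor array of each group. On 1420909_at it was at 5.92, 7.78 and 7.78 in null callus and at 7.17, 7.33 and 6.32 in heterozygous callus. The lowest values were those of the 2 marrow-poor arrays, 0.85 below the lowest of the other 4. Because of this the group means, 7.16 ± 1.08 and 6.94 ± 0.54 (SD, n = 3), differed by less than their spread (0.22, SE 0.55, 95% interval -1.11 to 1.55; limma's unadjusted p = 0.699). On the 4 marrow-rich arrays alone the 2 null values lay above the 2 heterozygous values, with a difference of 0.53 (SE 0.13, limma's unadjusted p = 0.00799, adjusted p = 0.644). With the marrow score as a covariate on all 6 arrays the difference was 0.21 (SE 0.21, limma's unadjusted p = 0.349), so these 2 ways of taking marrow into account gave different sizes. The direction depended on single arrays: the difference was -0.09 without null replicate 2, without null replicate 3 or without heterozygous replicate 3. The probe set 1451959_a_at, whose ending marks transcript variants of 1 gene, read 5.44, 6.58 and 6.05 against 6.02, 5.84 and 5.69. The marrow-poor arrays were again the lowest, by 0.15, and the difference was 0.17 (SE 0.28), or 0.39 (SE 0.21) without them.

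Vegfb, a VEGF family member abundant in muscle and heart, read 8.55, 8.84 and 8.77 in null callus and 8.79, 9.22 and 8.57 in heterozygous callus on its 1 probe set. Its 2 marrow-poor values were the lowest as well, by 0.19. The difference was -0.14 (SE 0.19), within the spread of the groups, and 0.04 without heterozygous replicate 2. Of 10 skeletal muscle genes, 8 were also lowest on both marrow-poor arrays, against 13.4% of all probe sets. The gaps ran from 0.01 for Myh4 to 0.29 for Pvalb, and all but those of Pvalb and Mb were at most 0.09. Of the 10 genes 0 passed, and the median difference was -0.07. Pgf, the placental growth factor gene, read 5.81, 5.55 and 6.05 against 5.70, 5.70 and 6.27, with the groups fully interleaved (difference -0.09, SE 0.21, 95% interval -0.58 to 0.41). Its sign turned to 0.10 without the marrow-poor arrays.

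Angpt1, the activating ligand of TEK, also had its lowest values on the marrow-poor arrays. On 1439066_at it was at 6.85, 7.99 and 7.25 in null callus and at 7.77, 7.64 and 7.02 in heterozygous callus. The marrow-poor values lay 0.23 below the other 4, and the groups overlapped over most of their range. The means of 7.36 ± 0.58 and 7.47 ± 0.40 (SD, n = 3) differed by -0.11 (SE 0.33), a value that ran from -0.42 to 0.14 when 1 array was left out. The weaker 1421441_at read 4.64, 5.63 and 4.94 against 5.55, 4.61 and 5.34 (difference -0.10, SE 0.33, and 0.21 without the marrow-poor arrays), and there the lowest value was that of heterozygous replicate 2, not a marrow-poor array. Of 8 measured megakaryocyte and platelet genes, cells known to carry Angpt1, 7 were lowest on both marrow-poor arrays, against 13.4% of all probe sets. The median difference of the 8 was 0.15, and -0.05 without those arrays, and 0 passed. The part of these cells in the Angpt1 values was not tested.

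Angpt2, which endothelial cells release when vessels are remodelled, showed the reverse order on the arrays. On 1448831_at it was at 6.54, 6.07 and 6.11 in null callus and at 5.62, 5.78 and 6.27 in heterozygous callus. The 2 marrow-poor arrays were the highest, each within its group, and among both the marrow-poor and the marrow-rich arrays the null values lay above the heterozygous ones. The difference was 0.35 (SE 0.21, limma's unadjusted p = 0.149), 0.39 (SE 0.13) without the marrow-poor arrays, and ran from 0.20 (without null replicate 1) to 0.54 (without heterozygous replicate 3). With the marrow score as a covariate it was 0.35 with an unadjusted p of 0.0129 and an adjusted p of 0.622 in limma's test. The second probe set, 1459636_at, lay at percentile 9.0 of all probe sets, at 2.39 to 2.81, and its difference of -0.19 (SE 0.14) had the other sign. The log2 ratio of Angpt2 to Angpt1 within each array was -0.32, -1.92 and -1.14 in null callus and -2.14, -1.86 and -0.75 in heterozygous callus. The groups overlapped and differed by 0.46 (SE 0.63, two-sided exact permutation p = 0.60), a value of 0.06 when null replicate 1 was left out and of 0.88 when heterozygous replicate 3 was.

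Among the PDGF genes the largest difference was that of Pdgfc, a ligand that becomes active after its outer domain is cleaved. On 1449351_s_at Pdgfc was at 7.76, 6.95 and 7.46 in null callus and at 6.84, 6.91 and 7.08 in heterozygous callus. Null replicate 2 lay within the heterozygous range and the other 2 null arrays above it. The difference was 0.45 (SE 0.21, 95% interval -0.07 to 0.96; limma's unadjusted p = 0.0774), or 1.36-fold, and ran from 0.26 to 0.66 with 1 array left out. It was 0.33 (SE 0.20, limma's unadjusted p = 0.152) without the marrow-poor arrays and 0.45 (SE 0.15, limma's unadjusted p = 0.0245) with the marrow covariate. The probe set 1419123_a_at repeated the pattern at 7.11, 6.25 and 6.90 against 6.02, 6.22 and 6.48 (difference 0.52, SE 0.25). Macrophage markers stood in a similar order: the mean deviation of 11 genes was 0.92, -0.35 and 0.27 in null callus and -0.29, -0.72 and 0.16 in heterozygous callus, and all 11 had a higher null mean while 0 passed. Among them the mannose receptor gene Mrc1 differed by 0.86 (SE 0.30), Cd163 by 1.19 (SE 0.43), Lyz2 by 0.58 (SE 0.24) and Mertk by 0.36 (SE 0.27). Cd163 differed by 0.67 and Mertk by 0.22 without the marrow-poor arrays, while the list's median was 0.47 either way. Their part in the Pdgfc values was not tested.

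Pdgfd, the other ligand that needs cleavage, read 5.83, 5.50 and 5.76 in null callus and 5.28, 5.08 and 6.00 in heterozygous callus on 1456532_at. Its 2 highest values were those of the marrow-poor arrays, and heterozygous replicate 3 placed the groups in overlap. The difference was 0.25 (SE 0.25), and 0.45 (SE 0.16) without the marrow-poor arrays, while with the marrow covariate it was 0.25 (SE 0.16, limma's unadjusted p = 0.160). The probe set 1426319_at, at 2.65 to 3.86, gave 0.17 (SE 0.30) and, without those arrays, 0.57 (SE 0.18). The third, 1446691_at, lay at percentile 6.83 and gave -0.02, or -0.14 without them.

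Pdgfb, made by endothelial cells and platelets and needed to recruit pericytes, read 8.18, 8.49 and 8.60 in null callus and 8.13, 8.03 and 8.62 in heterozygous callus on 1450414_at. All null values lay within the heterozygous range, whose top was set by heterozygous replicate 3, and the lowest null value was that of null replicate 1. The difference of 0.17 (SE 0.19) was 0.47 (SE 0.13) without these 2 marrow-poor arrays, and 0.05 without heterozygous replicate 2. With the marrow covariate it remained 0.17 (SE 0.19, limma's unadjusted p = 0.419). The probe set 1450413_at, at 5.88, 6.10 and 6.22 against 5.76, 6.04 and 6.55, gave -0.05 (SE 0.22), and 0.26 (SE 0.15) without the marrow-poor arrays. Pdgfa, the ligand of PDGFRA, read 6.90, 6.74 and 7.09 against 6.59, 6.84 and 6.64 on 1418711_at (difference 0.22, SE 0.13), with heterozygous replicate 2 above null replicate 2. Its other probe set gave 0.01 (SE 0.11, 95% interval -0.25 to 0.27), so the 2 probe sets of Pdgfa did not show the same size of difference.

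**Figure D2:**
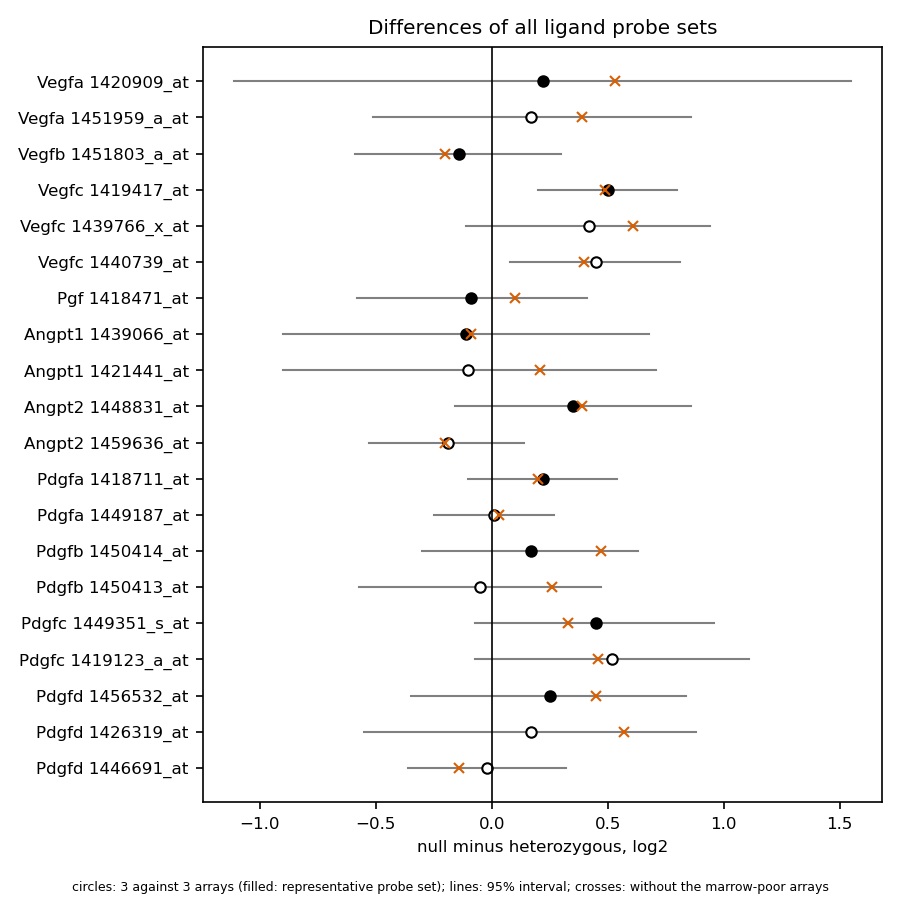
Null minus heterozygous difference on the log2 scale for each of the 20 ligand probe sets, with its 95% interval; filled circles are representative probe sets and crosses the differences without the marrow-poor arrays. The intervals of 2 Vegfc probe sets, 0.20 to 0.80 and 0.08 to 0.81, do not include 0, and the widest interval is that of Vegfa, -1.11 to 1.55.

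Without the marrow-poor arrays, 7 of the 20 probe sets, 35.0%, reached an unadjusted p under 0.05, all higher in null callus, against 7.67% of all probe sets (3.70% in that direction). They belonged to 5 genes, Vegfa, Vegfc, Angpt2, Pdgfb and Pdgfd, and 0 passed after adjustment, as was so for all probe sets (0%). This comparison rests on 2 against 2 arrays. With the marrow score as a covariate on all 6 arrays, 6 of the 20 reached that threshold against 7.76% of all probe sets, and the median of the 10 differences was 0.22. These were not the same probe sets: all 3 of Vegfc, both of Pdgfc and 1 of Angpt2 were below 0.05, whereas those of Vegfa, Pdgfb and Pdgfd were not. Over the 4 marrow-rich arrays, 9 of 14 endothelial marker genes reached an unadjusted p under 0.05, all higher, with a median difference of 0.47. So did 5 of 12 pericyte and smooth muscle genes, with 1 more, Des, lower. How far the ligand values follow those cell types was not tested.

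**Figure D3:**
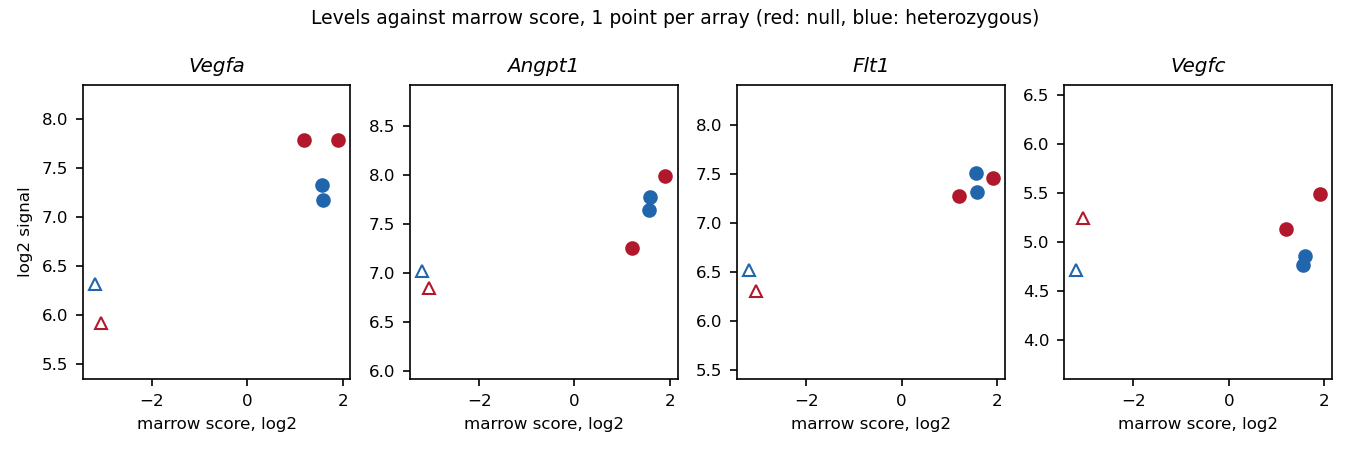
Log2 signal of Vegfa, Angpt1, the receptor gene Flt1 and Vegfc on each array against that array's marrow score; null arrays are red, heterozygous arrays blue and marrow-poor arrays open triangles. In Vegfa, Angpt1 and Flt1 the marrow-poor arrays lie below the other 4, while in Vegfc the 3 null arrays lie above the 3 heterozygous arrays at both ends of the score.

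On 4 of the 20 probe sets both marrow-poor arrays lay below the other 4, namely both of Vegfa, that of Vegfb and 1 of Angpt1, and on 2 of 20 they lay above, 1 each of Angpt2 and Pdgfd. Over all probe sets the shares were 13.4% and 16.1%, beside 20% and 10% of the ligand probe sets. The SD over the 6 arrays ran from 0.18 for Pdgfa to 0.77 for Vegfa on the representative probe sets. For the 3 genes with the largest SD, the 3 closest of 11199 other genes above the median level were found by the root mean square difference of centred profiles over the 6 arrays. Those of Vegfa were Prom1, Pfn2 and Phtf2, each at 0.12, and those of Angpt1 were Dnajb4, Dennd5b and Zfp770, each at 0.07. Those of Pdgfc were Ang, the angiogenin gene, at 0.04, the lysosomal mannosidase gene Manba at 0.06 and Nucb2 at 0.07. Ang was at 8.51, 7.69 and 8.24 in null callus and 7.56, 7.64 and 7.92 in heterozygous callus, on a probe set that may also read its paralogs.

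Of the 9 receptors and co-receptors, 7 had a higher mean in null callus, 0 passed limma's test and 0 reached an unadjusted p under 0.05, with a median difference of 0.23. Without the marrow-poor arrays the median was 0.40 and 2 of the 9, Tek and Nrp1, reached an unadjusted p under 0.05, both higher. Over all probe sets 3.70% did so in that direction. Kdr, the main VEGF-A receptor, was at 7.02, 7.50 and 7.02 in null callus and at 7.01, 7.01 and 6.85 in heterozygous callus. The null values lay above the heterozygous ones, but 2 of them, at 7.02, lay next to the highest heterozygous values of 7.01, and the difference was 0.23 (SE 0.16). Flt1 was at 6.31, 7.46 and 7.27 against 7.32, 7.51 and 6.52, lowest on the marrow-poor arrays as Vegfa was (difference -0.10, SE 0.38), and only 1 of its 4 probe sets had that sign. Flt4, the receptor of VEGF-C, was at 6.37, 7.25 and 6.97 against 6.83, 6.88 and 6.56, with the same 2 arrays lowest (difference 0.11, SE 0.23; 0.26 without them). Tek differed by 0.20 (SE 0.17) and the orphan receptor Tie1 by 0.30 (SE 0.31), and without the marrow-poor arrays by 0.40 and 0.61. Pdgfra was at 9.10, 8.41 and 9.34 against 8.47, 8.22 and 8.86, with null replicates 1 and 3 the highest of all arrays (difference 0.43, SE 0.28), and Pdgfrb differed by 0.23 (SE 0.29; 0.42 without the marrow-poor arrays). Of the neuropilins, co-receptors of the VEGF family, Nrp1 differed by 0.31 (SE 0.28; 0.66 without the marrow-poor arrays) and Nrp2 by -0.07 (SE 0.17).

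**Figure D4:**
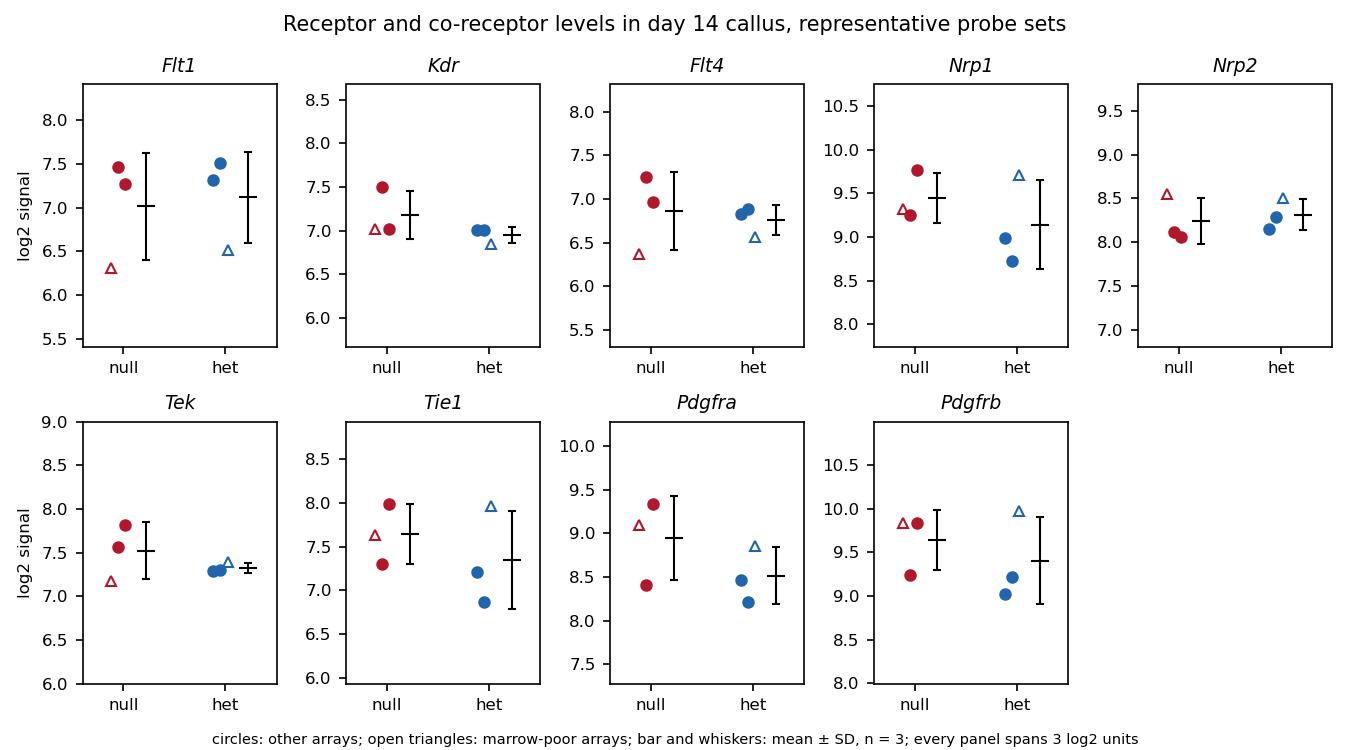
Log2 signal of 9 receptor and co-receptor genes on their representative probe sets, drawn as for the ligands, with null arrays in red, heterozygous arrays in blue, open triangles for marrow-poor arrays and mean ± SD (n = 3). Flt1 and Flt4 are lowest on the marrow-poor arrays and Pdgfrb and Nrp2 highest, and in Kdr alone the groups do not overlap.

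Of 13 genes that process or release the ligands, 0 passed and 9 had a higher null mean. In limma's test 1 reached an unadjusted p under 0.05, against 3.69% of all probe sets. That gene was Plat, the tissue plasminogen activator, a protease known to activate PDGF-C. Plat was at 7.49, 7.25 and 7.53 in null callus and at 6.43, 6.60 and 7.36 in heterozygous callus. Heterozygous replicate 3 lay inside the null range and the other 2 heterozygous arrays below it. The difference was 0.62 (SE 0.25, limma's unadjusted p = 0.0438), and 0.87 without the marrow-poor arrays, while its second probe set gave 0.03. Adamts3, which helps to mature VEGF-C, differed by 0.42 (SE 0.18) at a low level of 3.28 to 4.20, with its other probe set at -0.17, the heparan sulfate proteoglycan gene Hspg2 by 0.42 (SE 0.25; 0.24 without the marrow-poor arrays) and the heparanase gene Hpse by 0.71 (SE 0.51).

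Of 9 genes of the hypoxia pathway that controls Vegfa, 0 passed, 2 had a higher and 7 a lower null mean, and the median difference was -0.13. Hif1a averaged 9.57 ± 0.45 and 9.13 ± 0.40 (SD, n = 3; difference 0.44, SE 0.29), its partner Arnt differed by -0.25 (SE 0.17), the inhibiting hydroxylase gene Hif1an by -0.19 (SE 0.17) and Egln3 by -0.38 (SE 0.35). Of the 9, 4 were lowest on both marrow-poor arrays, against 13.4% of all probe sets. Among them was Epas1, at 9.44 and 9.62 there and 10.27 to 10.74 elsewhere. Epas1 differed by 0.15 (SE 0.37), and its other probe set gave -0.53. Of 14 genes listed for the response of endothelial cells, 12 had a higher null mean, 0 passed and the median difference was 0.13. Whether they respond to these ligands in the callus was not tested. Without the marrow-poor arrays the median was 0.31, and 5 of the 14 reached an unadjusted p under 0.05 in limma's test, all higher in null callus. Over all probe sets 3.70% did so in that direction, and 0 of the 14 passed after adjustment. The chemokine receptor gene Cxcr4 was at 7.43, 7.61 and 7.68 against 7.35, 7.27 and 7.39, without overlap (difference 0.24, SE 0.11). The tip cell gene Esm1 differed by 0.48 (SE 0.26), Rcan1 by -0.66 (SE 0.58) and Hey1 by 0.20 (SE 0.19, and 0.40 without the marrow-poor arrays). Esm1 was at a low level of 3.18 to 4.28, and its difference fell to as little as 0.20 with 1 array left out.

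The marker genes of endothelial cells all had a higher mean in null callus, 14 of 14, with a median difference of 0.30 (0.47 without the marrow-poor arrays), and 0 passed. The mean deviation of the list ran from 0.01 to 0.27 in null callus and from -0.41 to 0.19 in heterozygous callus, so the groups overlapped. Its lowest p belonged to the transcription factor gene Erg (0.36, SE 0.15), whose other probe set gave -0.07, followed by Egfl7 (0.32, SE 0.16), Mmrn2 (0.24, SE 0.14) and Ecscr (0.39, SE 0.29). Marker genes of pericytes and smooth muscle had a higher null mean in 9 of 12 cases, and 0 passed. Their median difference was 0.19, which was 0.43 without the marrow-poor arrays. The myosin kinase gene Mylk differed by 0.31 (SE 0.12), Tagln by 0.37 (SE 0.15), Des by -0.31 (SE 0.18) and Acta2 by 0.63 (SE 0.51). Des, at 12.69 to 13.49, lay near the skeletal muscle genes, whose means ran from 13.38 to 14.44, and was lowest on the marrow-poor arrays. Which cells its signal came from was not tested. Acta2 was highest on the marrow-poor arrays, and without them it differed by 0.60 (SE 0.15, limma's unadjusted p = 0.00986, adjusted p = 0.644).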

How the data were processed

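The authors' deposited table holds 1 value per probe set and array for callus RNA hybridised to Affymetrix Mouse 430_2 arrays. The values run from 1.65 to 14.49 and were taken as log2; no source used here names their scale, software or normalisation, and the deposited log2 values were tested as they stand. The array medians, 4.55 to 4.59, and distributions are nearly equal, so a shift common to all genes would not show. Control probe sets (64 of 45101) were left out. Symbols came from the platform annotation (34945 probe sets with 1 symbol, 932 with several and 9160 with none). Each probe set was tested with limma 3.58.1 in R 4.3.3 (lmFit, eBayes, two-sided, 4 residual and 2.5 prior degrees of freedom), p-values adjusted by Benjamini and Hochberg's method across the whole array at a threshold of 0.05; the script was tested on simulated data. Intervals are 95% intervals of that fit. The labels do not say that each array is a separate animal, so the p-values reflect only sample-to-sample spread, which may be technical, and 3 arrays per group limit the precision. Every ligand and receptor was to be named, and up to 4 genes of lowest p in each list; Epas1, Col1a1 and Ckm were chosen after their values were seen. The members and lists were chosen with earlier results of these data known. Other normalisations, weights, priors, filters, probe set choices and left-out arrays were tried.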

Additional observations from a re-analysis of the deposited data

How the results depend on the processing

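No ligand probe set passed limma's adjusted threshold under any alternative run, and over all probe sets 1 passed with the marrow score as a covariate (1447360_at, which has no symbol, adjusted p = 0.00935). The count of all probe sets at an unadjusted p under 0.05 was 1660, and it was 4631 with array weights, 3493 with the marrow covariate, 3453 without both marrow-poor arrays, and 746 and 771 where fewer probe sets were tested (those above the median level, and 1 per gene); leaving out 1 array gave 1048 (null replicate 3) to 2721 (heterozygous replicate 3). For the ligands that count was 2, and it was 7 with array weights, 7 without both marrow-poor arrays, 6 with the covariate, 1 with 1 probe set per gene, and 2 to 4 with 1 array left out, the 4 without null replicate 1 or heterozygous replicate 3. The median difference of 0.22 was 0.35 with array weights, 0.36 without both marrow-poor arrays, 0.10 with the mean over a gene's probe sets, and 0.10 (null replicate 3) to 0.27 with 1 array left out. The sign of Pgf turned to 0.10 with array weights, without both marrow-poor arrays and without heterozygous replicate 3, and to 0.04 without null replicate 2. The other turned signs were those of Vegfa (-0.09 without null replicate 2, null replicate 3 or heterozygous replicate 3), Vegfb (0.04 without heterozygous replicate 2) and Angpt1 (0.03 without heterozygous replicate 1, 0.14 without null replicate 1). With 1 array left out, Vegfa ran from -0.09 to 0.85, Vegfb from -0.28 to 0.04, Pgf from -0.21 to 0.10 and Angpt1 from -0.42 to 0.14. The Angpt2 to Angpt1 ratio ran from 0.06 to 0.88 with 1 array left out. Apart from the settings that test fewer probe sets, the cause of these shifts was not tested. On the representative probe set, or the mean over a gene's probe sets, Vegfc, Pdgfc, Pdgfa, Angpt2, Pdgfb and Pdgfd kept their sign under all 17 alternatives. Those that change only the prior, the filter, the probe sets tested or the kind of test cannot move a difference. Single other probe sets of Angpt2 (-0.19), Pdgfb (-0.05) and Pdgfd (-0.02) had the other sign. Signal over background is not given in the table, which limits what the lowest probe sets can show. No paired analysis was possible because the labels carry no replicate numbers that the groups share.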

Other observations

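Among the secreted relatives of the angiopoietins, Angptl6, an angiopoietin-like factor linked to angiogenesis, was lower in null callus on its 1 probe set, at 5.68, 5.38 and 5.61 against 6.19, 6.66 and 5.92. The groups did not overlap, and the difference of -0.70 (SE 0.21) had an unadjusted p of 0.0130 and an adjusted p of 0.999 in limma's test, and was -0.93 without the marrow-poor arrays. It belongs to a wider list of other ligands and ligand-like genes, which also holds Vegfd and Pdgfrl. Of the 6 measured genes of that list 0 passed and 5 had a higher null mean. Angptl4, a fasting and hypoxia-induced inhibitor of lipoprotein lipase, averaged 8.0 ± 0.46 and 7.50 ± 0.70 (SD, n = 3; difference 0.50, SE 0.39), and Angptl1 differed by 0.48 (SE 0.29; 0.75 without the marrow-poor arrays).

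Genes of cartilage and bone, tissues known as sources of Vegfa, mostly had a lower mean in null callus. Of 9 chondrocyte genes 7 had a lower null mean (median -0.21), of 5 hypertrophic chondrocyte genes 3 (median -0.15) and of 6 osteoblast genes 4 (median -0.33), and 0 passed in each list. Without the marrow-poor arrays these medians were -0.32, -0.04 and -0.05, but single genes lay far from them. On the other 4 arrays the hypertrophic genes differed by -1.19 (Col10a1), -0.31 (Alpl), -0.04 (Pth1r), 0.23 (Ihh) and 0.43 (Mmp13). The osteoblast genes differed there by -0.57 (Ibsp), -0.34 (Dmp1), -0.21 (Phex), 0.11 (Col1a1), 0.12 (Col1a2) and 0.17 (Sp7). The bone sialoprotein gene Ibsp, at 9.46, 9.59 and 9.84 against 10.44, 10.12 and 10.01, had no overlap (difference -0.56, SE 0.16), nor did the alkaline phosphatase gene Alpl, at 7.92, 8.01 and 7.87 against 8.35, 8.16 and 8.26 (difference -0.32, SE 0.10). Osteoclast genes (median -0.13, 7 measured), adipocyte genes (-0.03, 4 measured) and skin genes (1.27, 6 measured) had 0 passing too. Without the marrow-poor arrays the osteoclast median turned to 0.20 and the adipocyte median to 0.69, and the skin median was 1.05. In that comparison some genes reached an unadjusted p under 0.05 in limma's test. Higher in null callus were 1 of 7 osteoclast, 2 of 4 adipocyte and 1 of 5 hypertrophic chondrocyte genes. Lower were 2 of 9 chondrocyte and 1 of 6 osteoblast genes. Of the 6 skin genes 0 reached it. Over all probe sets 7.67% did so, 3.70% with a higher null mean.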
